A study of Mus musculus with 4 samples.

Results

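The genes examined here are 10 core components of TGF-beta signalling: the ligands Tgfb1, Tgfb2 and Tgfb3, the receptors Tgfbr1, Tgfbr2 and Tgfbr3, and the intracellular mediators Smad2, Smad3, Smad4 and Smad7. They were picked out of the deposited table by gene symbol, with no threshold on measured values, and all 10 were among its 55573 genes. Ribosome-protected mRNA fragments (footprints) were sequenced from primary mouse myoblasts, with 2 wild-type (WT) libraries and 2 libraries labelled eIF5A knockout (KO). The KO mice were Pax7CreERT2/+;eIF5Af/f and received tamoxifen, which switches on a Cre recombinase made in Pax7-expressing muscle stem cells and their progeny, so other cell types of the culture keep an intact Eif5a. Tamoxifen-treated littermates served as WT, described in one place as Pax7CreERT2/+ and in another as Pax7+/+;eIF5Af/f. Cells came from the hind limbs of 3-week-old mice, grew in medium with FGF, were labelled Day 2 and proliferating, and were treated with cycloheximide before lysis. The labels did not say whether libraries came from separate animals or cultures, so each p-value measures only the spread between these libraries.

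TGF-beta ligands are secreted in a latent form and must be released before they can bind. The freed ligand binds Tgfbr2, which recruits and phosphorylates Tgfbr1, while Tgfbr3 (betaglycan) presents ligand to them. Tgfbr1 then phosphorylates Smad2 and Smad3, which enter the nucleus with Smad4, and Smad7 acts back on the receptor as an inhibitor. In muscle, TGF-beta is known for holding back the differentiation of myoblasts and for driving fibroblasts to make matrix. Footprints report ribosomes on an mRNA, so a difference can come from the amount of mRNA or from its translation, and these libraries alone cannot tell the 2 apart. Likewise, fewer cells of a type and less signal per cell cannot be told apart in such bulk samples.

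eIF5A is known for helping the ribosome through stretches of consecutive prolines, so the longest proline runs of the members are described before their values. In the longest coding sequence per gene (GENCODE vM21, GRCm38), Tgfbr3 and Smad7 held a run of 4 prolines and Smad2 and Smad3 a run of 3. Tgfb1, Tgfb2, Tgfb3, Tgfbr2 and Smad4 reached 2, and Tgfbr1 had no 2 prolines in a row. A run of at least 3 was thus found in 4 of 10 members, and in 25.8% of the 9861 protein-coding genes tested that have a coding sequence there. The run of Tgfbr3, the member with the most reads, and that of Smad3, the member with the largest difference between the groups, are shown with 9 coding bases on each side. Capitals mark the codons of the run alone (the flanks hold another proline codon), and each sequence is on the minus strand and is joined across an intron.
Tgfbr3, first proline at codon 772, exons 15 to 16, chr5:107118519-107121381: agtccggttCCTCCTCCTCCAcagattttc
Smad3, first proline at codon 180, exons 3 to 4, chr9:63666200-63667478: ccagaaaccCCACCTCCTggctacctg
Read positions within a gene were not part of the deposited values, so ribosome occupancy at these runs was not analysed here.

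Each library held 642429 to 704006 gene-assigned reads, of which protein-coding genes took 33.9% to 41.5% in WT against 59.2% to 65.4% in the libraries labelled KO. Eif5a (ENSMUSG00000078812, chromosome 11, 69916714 to 69921958, minus strand) was at 34.9 and 65.2 RPKM in WT replicates 1 and 2 and at 60.3 and 59.4 RPKM in the libraries labelled KO. RPKM is reads per kilobase of gene length, relative to a scaled library size. The targeted gene therefore does not separate the groups (log2 difference 0.32 ± 0.48 SE, adjusted p = 0.839 in limma). Directions below are between libraries as labelled. The libraries also differed in markers of several cell types. The summed RPKM of 8 myoblast markers was 324 and 184 in WT against 96.2 and 116 in the libraries labelled KO, and the fitted log2 difference was negative for 7 of 7 tested markers, though for Itga7 it was only -0.02 and the mean RPKM was higher in the libraries labelled KO. Counts for the other marker lists are of fitted differences as well. The stem cell marker Pax7 had 30, 10, 5 and 7 reads in WT replicates 1 and 2 and libraries labelled KO replicates 1 and 2, the order used throughout. Myog, another of the 8 myoblast markers, had 82, 3, 1 and 2 reads, and gave 91.0 RPKM of the sum in WT replicate 1. The sum of 8 endothelial markers was 203, 285, 318 and 382 RPKM, with 8 of 8 higher in the libraries labelled KO. That of 12 fibroblast markers was 487, 383, 690 and 383 RPKM (9 of 12 higher), and that of 6 mural markers 85.6, 61.4, 71.3 and 55.0 RPKM (2 of 5 tested higher). The 9 macrophage and leukocyte markers summed to between 47.2 and 60.6 RPKM (2 of 4 tested higher), with C1qa and Itgam at 0 in all libraries. The endothelial marker Cdh5 had 869 reads and the fibroblast marker Pdgfra 1566 reads over the 4 libraries, so cells other than myoblasts contributed footprints in both groups. TGF-beta ligands and receptors are made by all of these cell types, and the part of the cell makeup in any difference below was not tested.

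Across the members, 9 of 10 passed the filter on low values (a mean of at least 1 RPKM), and none was called by limma at an adjusted p-value under 0.05, where 0.106% of the 11363 genes tested were called. Adjusted p-values of the 9 ran from 0.672 to 1.00. With limma-voom on recovered whole reads 0 of 9 were called as well (background 0.695%). In each fit 1 member had an unadjusted p-value under 0.05, where 7.32% of all genes had one in limma and 11.1% in voom. That member, Smad3, was also the only one at least 2-fold apart on the fitted log2(RPKM + 1) scale. The means of Tgfb3 in RPKM differed more than 2-fold too, through 1 library, as given below. It was lower in the libraries labelled KO, where 4.29% of all genes tested met both criteria in that direction. No member met them in the other direction (background 2.67%). Both groups were free of overlap for Smad3 alone, below WT (1 of 9, background 20.3%), and no member lay wholly above WT (background 20.1%). A single member of 9 is too few to be told from these shares. Scaled to total gene reads, which moved the median of all genes up to 0.47, 1 member (Smad3) lay below WT, as did 7.87% of all genes, and 4 lay above it (Tgfbr1, Smad2, Smad4 and Smad7), as did 41.4%. The median log2 difference of the 9 members was -0.08, against 0.00 for all genes tested, whose quartiles were -0.52 and 0.47. Of the members, 4 had a positive and 5 a negative difference, and together they had 1918 reads over the 4 libraries.

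**Figure D1:**
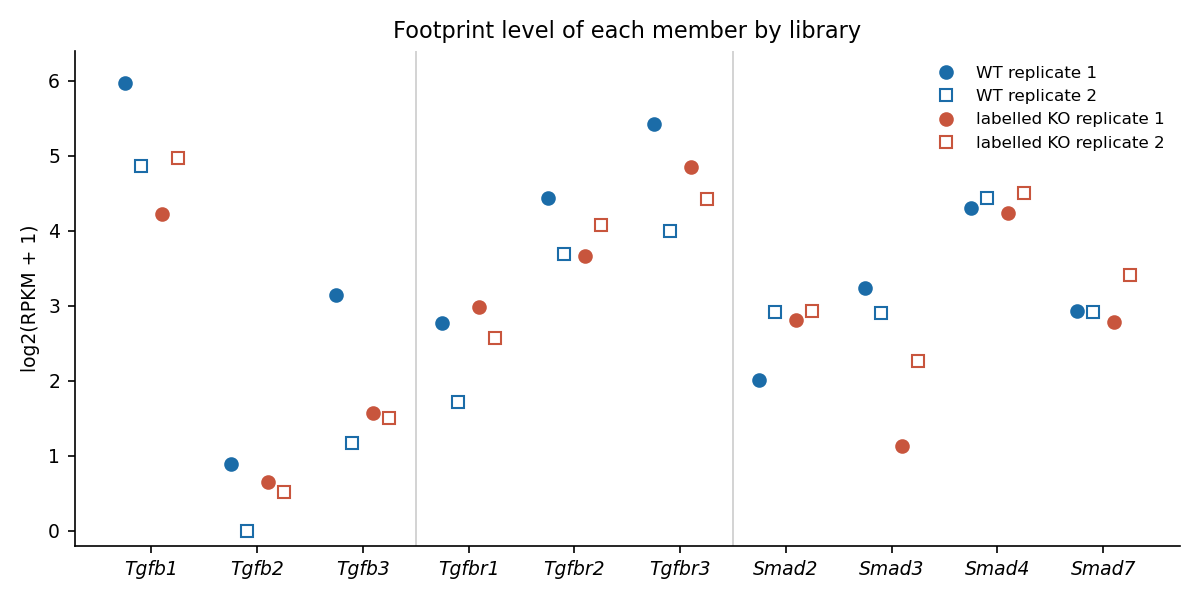
The level of each member is plotted as log2(RPKM + 1) for both WT replicates (blue) and for replicates 1 and 2 labelled KO (red), with ligands, receptors and Smads parted by vertical lines. Colours mix for every gene except Smad3, whose red points (1.19 and 3.80 RPKM) both lie under the blue ones (8.38 and 6.51 RPKM).

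Tgfb1 supplied most ligand footprints. Tgfb1 (ENSMUSG00000002603, chromosome 7, 25687002 to 25705077, plus strand), the main TGF-beta of most tissues, was at 61.8, 28.2, 17.7 and 30.2 RPKM, from 188, 67, 81 and 123 reads. WT replicate 1 stood highest and the groups overlapped, since WT replicate 2 lay under the library labelled KO replicate 2. Means were 45.0 ± 23.8 RPKM in WT against 24.0 ± 8.83 RPKM in the libraries labelled KO (SD, n = 2 each). The log2 difference, -0.83 ± 0.55 (SE), had a 95% interval of -2.18 to 0.53 and an adjusted limma p of 0.697. It was -0.27 without WT replicate 1, -0.46 without the library labelled KO replicate 1 and -1.38 without WT replicate 2. The replicates themselves were as far apart as the groups: WT replicate 1 was 2.19 times WT replicate 2 (95% counting interval 1.65 to 2.94), and library labelled KO replicate 1 was 0.586 times replicate 2 (0.437 to 0.783). Among the protein-coding genes tested, the mean level of Tgfb1 exceeded that of 96.0% in WT against 89.7% in the libraries labelled KO.

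Tgfb3 (ENSMUSG00000021253, chromosome 12, 86056745 to 86079041, minus strand) was at 7.85, 1.25, 1.96 and 1.83 RPKM, from 16, 2, 6 and 5 reads. WT replicate 1 again stood apart, and the other 3 libraries lay close together. Means were 4.55 ± 4.66 RPKM in WT against 1.89 ± 0.0888 RPKM in the libraries labelled KO (SD, n = 2 each), with a log2 difference of -0.63 ± 0.70 (SE, 95% interval -2.35 to 1.09) and an adjusted limma p of 0.775. The gene overlaps Ttll5 on the other strand, which had 26 reads in all, and whether strand was used in counting was not given in the sources used here. Without WT replicate 1 the difference of Tgfb3 was 0.36, the opposite direction.

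Tgfb2 (ENSMUSG00000039239, chromosome 1, 186622792 to 186705989, minus strand) was barely detected, with 3, 0, 3 and 2 reads or 0.859, 0, 0.571 and 0.428 RPKM. No library exceeded the floor of 3 reads, no fold change is given, and the gene was below the filter and was not tested. WT replicate 2, with no read, allows up to 3 reads of the library.

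Within a library the share of each ligand does not depend on how libraries were scaled. Tgfb1 made up 87.7% and 95.7% of the summed ligand RPKM in WT against 87.5% and 93.0% in the libraries labelled KO. Tgfb3 made up 11.1%, 4.26%, 9.66% and 5.64%, and Tgfb2 at most 2.82%. Thus Tgfb1 was the leading ligand in each of the 4 libraries, and its share overlapped between the groups.

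Of the receptors, Tgfbr3 had the highest RPKM and Tgfbr1 the lowest in all 4 libraries. The lead of Tgfbr3 depended on the length used. Per coding length Tgfbr2 led in replicate 2 of both groups, with 53.3% of the receptor total against 37.1% for Tgfbr3 in WT, and 49.8% against 35.7% in the library labelled KO. Tgfbr3 (ENSMUSG00000029287, chromosome 5, 107106570 to 107289629, minus strand), the co-receptor, was at 42.1, 14.9, 27.8 and 20.4 RPKM, from 166, 46, 165 and 108 reads. The 2 WT libraries held both the highest and the lowest value, with WT replicate 1 at 2.82 times WT replicate 2 (95% counting interval 2.02 to 4.00). Means were 28.5 ± 19.2 RPKM in WT against 24.1 ± 5.21 RPKM in the libraries labelled KO (SD, n = 2 each). The log2 difference, -0.08 ± 0.58 (SE), had a 95% interval of -1.51 to 1.35 and an adjusted limma p of 0.972. It turned to 0.64 without WT replicate 1 and to 0.14 without the library labelled KO replicate 2. Despite 485 reads, the most of any member, the spread between WT replicates left a wide interval.

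Tgfbr2 (ENSMUSG00000032440, chromosome 9, 116084293 to 116175360, minus strand), the ligand-binding kinase receptor, was at 20.7, 11.9, 11.7 and 15.9 RPKM, from 102, 46, 87 and 105 reads. WT replicate 1 was highest and the other 3 libraries overlapped. Means were 16.3 ± 6.18 RPKM in WT against 13.8 ± 2.94 RPKM in the libraries labelled KO (SD, n = 2 each), with a log2 difference of -0.19 ± 0.44 (SE, 95% interval -1.29 to 0.90) and an adjusted limma p of 0.901. The direction turned without WT replicate 1 (0.18) and without the library labelled KO replicate 1 (0.01).

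Tgfbr1 (ENSMUSG00000007613, chromosome 4, 47353222 to 47414931, plus strand), the signalling kinase that phosphorylates Smad2 and Smad3, was at 5.84, 2.27, 6.92 and 4.93 RPKM, from 23, 7, 41 and 26 reads. WT replicate 2 was low, and WT replicate 1 lay between both libraries labelled KO. Means were 4.06 ± 2.52 RPKM in WT against 5.92 ± 1.41 RPKM in the libraries labelled KO (SD, n = 2 each). The log2 difference, 0.53 ± 0.48 (SE), had a 95% interval of -0.66 to 1.72 and an adjusted limma p of 0.732. It was 0.00 without WT replicate 2 and 1.07 without WT replicate 1.

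As a share of the 3 receptors, Tgfbr1 was set apart between the groups. It made up 8.51% and 7.81% of receptor RPKM in WT against 14.9% and 11.9% in the libraries labelled KO, 5.26 percentage points higher on average (8.16% ± 0.499 and 13.4% ± 2.09, SD, n = 2 each). No value was shared between the ranges of the groups. The exact permutation p-value was 0.33, and 2 libraries a group allow none smaller. Counting error was of similar size: of receptor reads, Tgfbr1 took 7.90% (Wilson 95% interval 5.32% to 11.6%) and 7.07% (3.47% to 13.9%) in WT, against 14.0% (10.5% to 18.4%) and 10.9% (7.53% to 15.5%) in the libraries labelled KO. Tgfbr2 made up 30.1%, 41.0%, 25.2% and 38.5% and Tgfbr3 61.3%, 51.2%, 59.9% and 49.5% of receptor RPKM. For both of these the shares overlapped, and replicate 1 of each group had more Tgfbr3 and less Tgfbr2 than replicate 2.

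**Figure D2:**
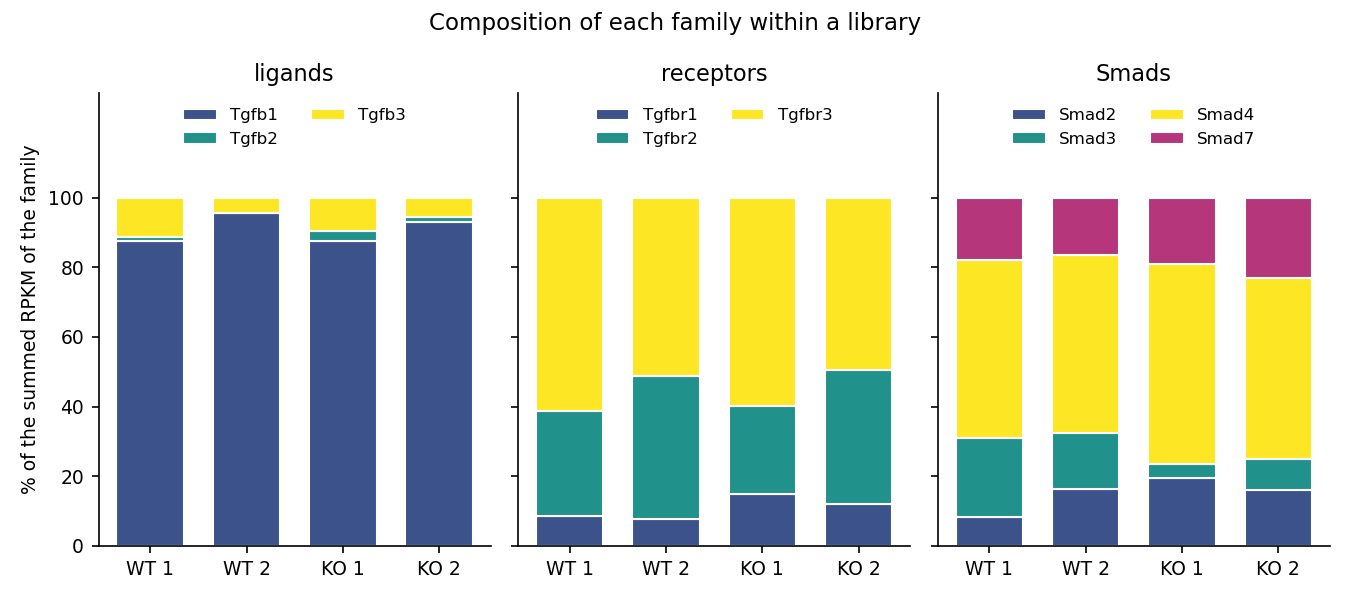
Stacked bars give the share of each gene in the summed RPKM of ligands (left), receptors (middle) and Smads (right) within each library, first for both WT replicates and then for replicates 1 and 2 labelled KO. Tgfb1 fills at least 87.5% of every ligand bar, and the Smad3 segment is 22.8% and 16.2% in WT against 3.86% and 9.11% in the libraries labelled KO.

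Smad3 was the member with the largest difference. Smad3 (ENSMUSG00000032402, chromosome 9, 63646767 to 63757994, minus strand), a receptor-activated Smad that binds DNA directly, was at 8.38, 6.51, 1.19 and 3.80 RPKM, from 28, 17, 6 and 17 reads. Both libraries labelled KO lay under both WT libraries, and library labelled KO replicate 1 was the lowest. Means were 7.45 ± 1.32 RPKM in WT against 2.50 ± 1.84 RPKM in the libraries labelled KO (SD, n = 2 each), a WT mean 2.98 times that of the libraries labelled KO. The log2 difference, -1.37 ± 0.49 (SE), had a 95% interval of -2.58 to -0.16 and an unadjusted limma p of 0.0326. After adjustment over all genes tested the limma p-value was 0.672, so Smad3 did not pass the threshold, and the exact permutation test gave 0.33. Its mean level exceeded that of 65.8% of protein-coding genes tested in WT and of 29.1% in the libraries labelled KO.

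The separation of Smad3 rests on few reads. WT replicate 2 and library labelled KO replicate 2 both had 17, and their RPKM differ through the scaled library sizes of 471136 and 807705 reads. Exact Poisson 95% intervals, which cover counting error alone, were 5.57 to 12.1 and 3.79 to 10.4 RPKM in WT, against 0.438 to 2.60 and 2.21 to 6.08 RPKM in the libraries labelled KO. The interval of library labelled KO replicate 2 overlapped both WT intervals, and that of replicate 1 lay wholly below them. Without that library the log2 difference was -0.81 (adjusted p = 0.944 in limma). With voom on recovered reads it was -1.80 ± 0.60 (SE; unadjusted p 0.00496, adjusted p 0.238 in limma-voom). Scaled to total gene reads it was -0.90, where the median of all genes moved up to 0.47.

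Smad2 (ENSMUSG00000024563, chromosome 18, 76241580 to 76310963, plus strand), the other receptor-activated Smad of this branch, was at 3.02, 6.53, 6.03 and 6.63 RPKM, from 16, 27, 48 and 47 reads. WT replicate 1 was low, and the other 3 libraries lay close together. Means were 4.77 ± 2.48 RPKM in WT against 6.33 ± 0.424 RPKM in the libraries labelled KO (SD, n = 2 each), with a log2 difference of 0.41 ± 0.44 (SE, 95% interval -0.67 to 1.49) and an adjusted limma p of 0.765. Without WT replicate 1 it was -0.04.

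Smad4 (ENSMUSG00000024515, chromosome 18, 73639009 to 73703780, minus strand), the partner shared with the BMP branch, was at 18.8, 20.6, 17.8 and 21.7 RPKM, from 42, 36, 60 and 65 reads. This was the steadiest Smad across the libraries, and the groups overlapped. Means were 19.7 ± 1.28 RPKM in WT against 19.8 ± 2.73 RPKM in the libraries labelled KO (SD, n = 2 each). The log2 difference, 0.00 ± 0.39 (SE), had a 95% interval of -0.95 to 0.95 and an adjusted limma p of 1.00, so changes of up to about the ends of this interval remain possible. Its sign turned with the scaling, at -0.11 on protein-coding reads and -0.02 after quantile normalization.

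Smad7 (ENSMUSG00000025880, chromosome 18, 75367529 to 75395935, plus strand), the inhibitory Smad, was at 6.60, 6.57, 5.85 and 9.58 RPKM, from 18, 14, 24 and 35 reads. Both WT values lay between those of the libraries labelled KO. Means were 6.59 ± 0.0222 RPKM in WT against 7.72 ± 2.64 RPKM in the libraries labelled KO (SD, n = 2 each), with a log2 difference of 0.17 ± 0.40 (SE, 95% interval -0.81 to 1.14) and an adjusted limma p of 0.904. Without the library labelled KO replicate 2 it was -0.15. The close WT pair is tighter than counts of 18 and 14 reads can resolve.

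**Figure D3:**
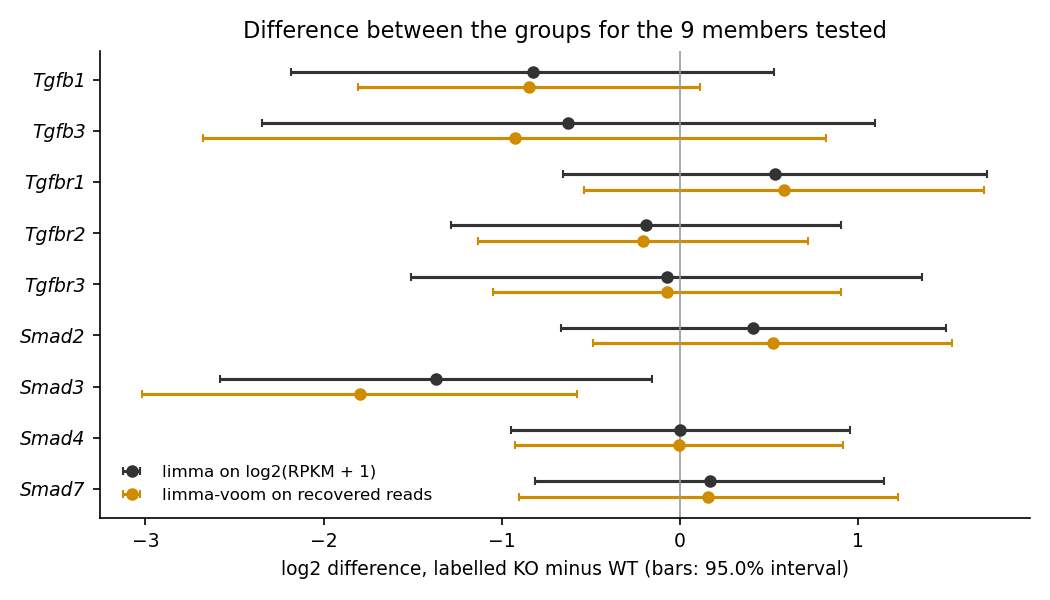
Points give the log2 difference (libraries labelled KO minus WT) of the 9 members tested and bars its 95% interval, from limma on log2(RPKM + 1) (dark) and from limma-voom on recovered reads (orange). For Smad3 both intervals lie below 0 (-2.58 to -0.16 in limma), and for the other 8 members both intervals include 0.

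Among the 4 Smads of each library, Smad3 had the second largest share in WT replicate 1 and the smallest in the other 3, though in WT replicate 2 it was level with Smad2 (16.2% each). Per coding length its share in WT replicate 2 was 20.4%, below Smad2 at 29.5% and above Smad7 at 16.8%. Smad3 made up 22.8% and 16.2% of Smad RPKM in WT against 3.86% and 9.11% in the libraries labelled KO (19.5% ± 4.66 and 6.49% ± 3.71, SD, n = 2 each), a difference of -13.0 percentage points. Smad2 made up 8.22%, 16.2%, 19.5% and 15.9%, Smad4 51.0%, 51.2%, 57.7% and 52.0%. Smad7 made up at least 16.4%, in WT replicate 2, and at most 23.0%, in library labelled KO replicate 2. The shares of Smad4 and Smad7 in RPKM lay above WT in both libraries labelled KO. That of Smad4 did so by 3.72 points on average and by 0.88 without the library labelled KO replicate 1. Per coding length the Smad4 share was 34.9%, 33.3%, 38.6% and 34.6%, so the groups overlapped. Shares of a family sum to the whole and are not independent. Of Smad reads, Smad3 took 26.9% (Wilson 95% interval 19.3% to 36.2%) and 18.1% (11.6% to 27.1%) in WT, against 4.35% (2.01% to 9.16%) and 10.4% (6.57% to 16.0%) in the libraries labelled KO. The permutation p-value of the Smad3 share was again the smallest allowed, 0.33.

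The ratios between members within a library were picked once the values were known, and are given as a description. Smad3 over Smad2, both per length, was 2.77 (95% counting interval 1.45 to 5.49) and 0.998 (0.510 to 1.90) in WT, against 0.198 (0.0693 to 0.463) and 0.573 (0.309 to 1.02) in the libraries labelled KO. Smad2 exceeded Smad3 in both libraries labelled KO, the pair was level in WT replicate 2, and Smad3 exceeded Smad2 in WT replicate 1 alone. Per coding length the ratio was 1.92, 0.692, 0.137 and 0.397, so that Smad2 led in 3 of 4 libraries. Smad3 over Smad4 was 0.447, 0.316, 0.0670 and 0.175. Tgfbr1 over Tgfbr2 was 0.283 and 0.191 in WT against 0.590 and 0.310 in the libraries labelled KO. For these 3 ratios the groups did not overlap, and for Tgfbr3 over Tgfbr2 and Tgfb1 over Tgfb3 they did. The exact permutation p-value was 0.33 for each of the 3, the smallest that 2 libraries a group allow. The paired genes also differ in coding GC content (Smad3 56.8%, Smad2 48.0%, Smad4 50.9%, Tgfbr1 44.8%, Tgfbr2 56.4%). The part of the GC trend given below in these ratios was not tested.

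Ordered by mean RPKM, WT levels ran Tgfb1, Tgfbr3, Smad4, Tgfbr2, Smad3, Smad7, Smad2, Tgfb3, Tgfbr1 and Tgfb2, from 45.0 to 0.430 RPKM. Of neighbours in this order, Tgfbr2 and Smad3, Smad7 and Smad2, and Tgfbr1 and Tgfb2 did not overlap in their WT libraries, and the others did. In the libraries labelled KO the order was Tgfbr3, Tgfb1, Smad4, Tgfbr2, Smad7, Smad2, Tgfbr1, Smad3, Tgfb3 and Tgfb2, from 24.1 to 0.499 RPKM. There the neighbours Smad4 and Tgfbr2, Tgfbr2 and Smad7, Tgfbr1 and Smad3, and Tgfb3 and Tgfb2 did not overlap. Smad3 stood in rank 5 in WT but rank 8 in the libraries labelled KO, and Tgfb2 was last in both. Per coding length the order differed, with Tgfb1, Tgfbr2 and Tgfbr3 leading in that order in both groups (means of 103, 63.6 and 61.9 RPKM per coding length in the libraries labelled KO), while Smad3 kept these ranks. The genes whose profile over the 4 libraries lay closest to that of Tgfbr3 were Numb, Mycbp2 and Sbf2 (Euclidean distance of centred log2 values 0.0703, 0.0921 and 0.0976, of 6499 genes compared), each with WT replicate 1 highest and WT replicate 2 low, as for Numb at 9.74, 2.71, 5.91 and 4.11 RPKM.

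Across all genes the differences between the groups went with coding GC content, from a median of 0.37 in the decile lowest in GC to -0.48 in the highest. Smad3 is 56.8% GC, where the median of its decile was -0.17, and its difference was -1.25 after a per-library trend on GC content and length was removed. Tgfb1 is 58.5% GC with a decile median of -0.25, and moved to -0.62. Tgfbr1, of 44.8% GC with a decile median of 0.29, moved from 0.53 to 0.22 with the trend removed, and Smad2 from 0.41 to 0.15. Smad7 is 62.7% GC, in the decile with a median of -0.48, and was the member farthest above its decile. With the trend removed, the difference of Smad7 was 0.55 against 0.17 before (adjusted p = 0.747 in limma), and its groups did not overlap. Then 1 member (Smad3) lay below WT and 1 (Smad7) above it, where 20.0% and 19.9% of the genes so corrected did.

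**Figure D4:**
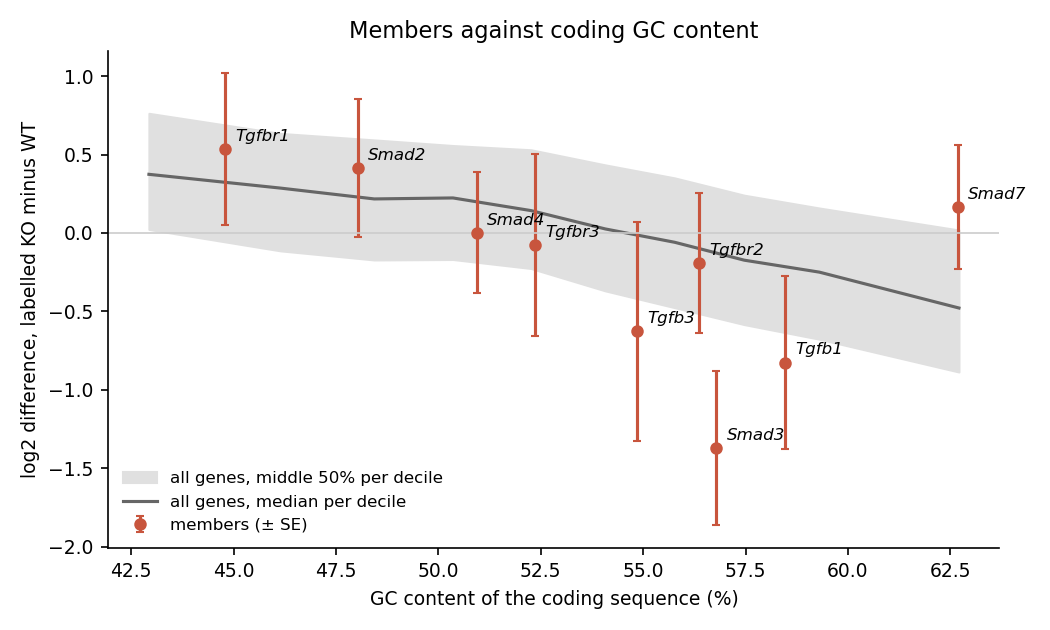
The log2 difference of the 9 members tested (red, ± SE) is plotted against their coding GC content (%), over the median (line) and interquartile range (grey) of all protein-coding genes per GC decile. The line runs from 0.37 to -0.48, Smad3, Tgfb1 and Tgfb3 lie below the grey band of their decile and Smad7 above it.

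Other components of the pathway were followed in 8 lists, with 101 of 103 listed symbols in the table and 92 tested. The missing symbols, Ctgf and Cyr61, are older names of Ccn2 and Ccn1, which were listed too. None of the 92 was called by limma (smallest adjusted p = 0.506), and 6 had an unadjusted p-value under 0.05, a share close to the 7.32% of all genes. The criterion of 2-fold with such a p-value was met by 2 higher and 3 lower genes. Both libraries labelled KO lay above WT for 17 genes and below WT for 22, and the median log2 difference was 0.04. These counts are close to the shares of all genes tested, 20.1% above and 20.3% below. The same shares are the background for the counts of each list below. With voom 1 of the 92 was called, Smad6, where 0.695% of all genes were. Some of the genes named below differed in the direction of the GC trend. Ltbp3, Ski and Smad6 are in the GC decile with a median of -0.48, and Itgb1 and Lum in that with 0.37. Others, such as Acvr2a and Tab2, were lower although their decile medians were 0.37 and 0.29. The part of GC content in each was not tested.

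Genes that hold the ligand latent or release it went both ways, with 3 of 16 above WT, 4 below and a median of 0.03. Ltbp3, which tethers the latent ligand to the matrix, was at 17.0 and 12.2 RPKM in WT against 5.47 and 5.05 RPKM in the libraries labelled KO (log2 difference -1.30, unadjusted p-value 0.0149). Itgav, the integrin chain that pulls the ligand free, was at 11.9 and 11.7 against 34.9 and 23.9 RPKM (1.23, unadjusted p-value 0.0240). Its partner chain Itgb1 was at 48.0 and 87.9 against 158 and 119 RPKM (1.07). Extracellular antagonists and matrix binders had the highest list median, 0.69, with 3 of 7 above WT and 1 below. Follistatin (Fst), which traps activins and myostatin, was at 4.34 and 6.94 against 25.2 and 7.55 RPKM (1.20). The matrix proteoglycans Lum (16.9 and 8.67 against 40.1 and 20.7 RPKM, 1.18) and Fmod (5.52 and 8.99 against 11.3 and 16.1 RPKM, 0.85) were named by the same rule. Lum is also one of the fibroblast markers, whose sum was highest in library labelled KO replicate 1.

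In the activin and myostatin branch 2 of 8 genes lay below WT and none above (median -0.35). Acvr2a, a type II activin receptor, was at 3.50 and 3.36 against 2.91 and 0.871 RPKM (-0.71). Receptor cofactors and decoys had 3 of 9 above WT, none below and a median of 0.00. These were Cd44, a hyaluronan receptor (12.0 and 20.0 against 31.1 and 23.8 RPKM, 0.77), Acvrl1, an endothelial type I receptor (5.83 and 6.47 against 9.05 and 10.2 RPKM, 0.57), and Nrp1, a co-receptor of endothelial cells (7.97 and 11.7 against 11.8 and 13.3 RPKM, 0.34). The summed endothelial markers were higher in the same libraries, and their part in these values was not tested.

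Smad regulators had 1 of 16 above WT and 4 below, with a median of -0.05. Ski, a corepressor that binds Smad complexes, was at 36.7 and 24.4 against 11.1 and 14.5 RPKM (-1.18, unadjusted p-value 0.0329). The coactivator Crebbp was at 14.3 and 6.90 against 6.68 and 4.02 RPKM (-0.83), and Smurf1, a ubiquitin ligase that acts with Smad7, at 12.8 and 12.7 against 7.13 and 8.79 RPKM (-0.63). All 3 tested Smads of the BMP branch lay below WT, where 20.3% of all genes tested did. Of these, 1 (Smad6) had an unadjusted limma p-value under 0.05. Smad6, its inhibitory Smad, was at 137 and 351 RPKM in WT against 34.1 and 17.0 RPKM in the libraries labelled KO (-3.13 ± 0.64 SE, adjusted p = 0.506 in limma and 0.000482 in voom). The BMP mediators Smad1 (18.5 and 17.6 against 12.0 and 14.8 RPKM, -0.41) and Smad5 (7.38 and 6.87 against 6.54 and 5.34 RPKM, -0.23) differed less.

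Of the kinases and adaptors that carry TGF-beta signals without Smads, 4 of 10 lay above WT and 4 below (median -0.06). The adaptor Tab2 was at 9.73 and 6.23 against 3.77 and 3.23 RPKM (-0.97, unadjusted p-value 0.0484), and its kinase Map3k7 (TAK1) at 3.36 and 4.96 against 1.89 and 2.51 RPKM (-0.68). The stress kinase p38 alpha, Mapk14, was at 10.6 and 9.70 against 16.1 and 18.1 RPKM (0.70). Known targets of TGF-beta had 3 of 23 above WT and 4 below, with a median of 0.19. Postn, a matrix protein made by fibroblasts, was at 2.29 and 3.90 against 11.8 and 7.68 RPKM (1.39, unadjusted p-value 0.0168). Loxl2, which cross-links matrix, went the other way at 7.67 and 4.32 against 4.08 and 2.52 RPKM (-0.68). Targets thus lay on both sides of WT, and none passed the adjusted test.

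**Figure D5:**
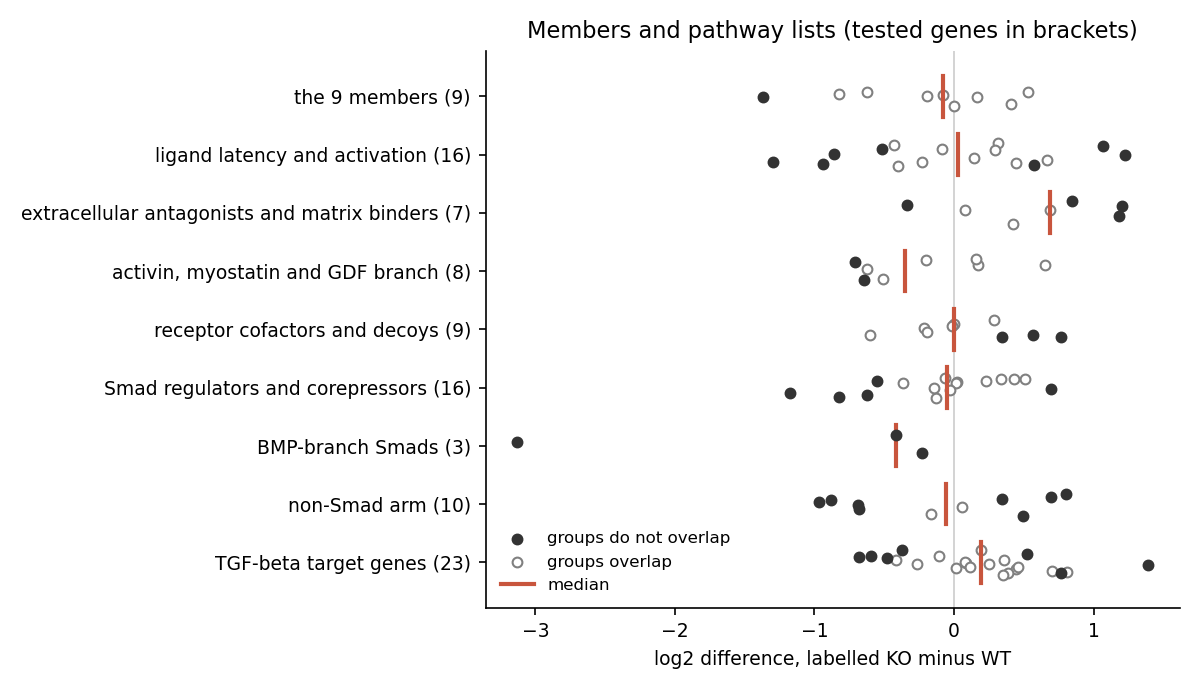
Each point is the log2 difference (libraries labelled KO minus WT) of 1 tested gene, for the 9 members and the 8 pathway lists, filled where the groups do not overlap, with a red bar at the median of each list. List medians run from -0.41 (BMP-branch Smads) to 0.69 (extracellular antagonists), and the point farthest to the left is Smad6 at -3.13.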

How the data were processed

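Footprints were sequenced by the authors as single-end reads. Low-quality, adapter, rRNA and tRNA reads were removed, and the rest were mapped to GRCm38 by Tophat2, and HTSeq assigned them to Ensembl 97 genes. Strand use, multi-mapping and tool versions are not given in the sources used here. The deposited values are RPKM, relative to a scaled library size. Multiplied by gene length they gave whole reads for 100% of values (tolerance 0.01), a floor of 3 reads being used. The library sizes so recovered ran from 471136 to 906990, unlike the gene-assigned reads given above. The methods of the study do not state how these sizes were set. With them, the median log2 difference of all genes tested was 0.00.

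RPKM were tested with limma 3.58.1 (R 4.3.3, two-sided, mean-variance trend, Benjamini-Hochberg over 11363 genes whose RPKM averaged at least 1) on log2(RPKM + 1), a scale that understates differences of low genes. The median tested gene had 54 reads. Reads carry no molecular tags, so counting intervals omit other error. Coding sequences were taken from GENCODE vM21. The fit was also run on simulated reads with a fixed spread between replicates, where genes of at least 40 reads carried large known changes. That run checks the code and does not cover smaller changes or genes with fewer reads.

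Members, lists and alternatives were chosen with earlier results of these data known, although the rule for members uses symbols alone. Named were the 10 members, Eif5a, up to 3 genes per list (largest differences among genes of at least 40 reads without overlap) and the 3 nearest profiles to the member with most reads. Of the genes this rule named, 1 is not reported here. Marker genes named were chosen after their values were seen. Alternatives were another pseudocount, filters, scalings, variance models, voom, GC and length correction, a replicate block and leaving out each library.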

Additional observations from a re-analysis of the deposited data

How the results depend on the processing

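No member was called at an adjusted p-value under 0.05 in limma under any of the 14 alternatives or without any library. The median log2 difference of the members moved to 0.51 on total reads (0.47 for all genes) and ran from -0.56 to 0.17 when single libraries were left out, with -0.56 without WT replicate 2. The count of 1 member (Smad3) past 2-fold with an unadjusted p-value under 0.05 became 0 when genes had to average 5 RPKM, which drops Smad3 from the genes tested, 0 on total reads and 0 without a variance trend. It was 0 to 1 without single libraries, with 0 without WT replicate 1 or library labelled KO replicate 1. The count of members without overlap was 0 under that filter, 5 on total reads (Tgfbr1, Smad2, Smad4 and Smad7 above WT, where 41.4% of all genes were, and Smad3 below, where 7.87% were), 2 once the trend on GC and length was taken out (also with the block), and 4 to 6 without single libraries, where groups of 1 and 2 overlap less by construction. Smad3 lay below WT in every such setting that tested it, but on total reads WT replicate 2 and library labelled KO replicate 2 were nearly tied, with 26.5 and 26.1 Smad3 reads per 1e6 gene reads. The pathway count became 1 (Smad6) with voom.

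Signs turned for Smad4 with voom (-0.0052), protein-coding reads (-0.11), quantile normalization (-0.020), and the trend on GC and length taken out, also in the replicate block (-0.16). Left-out libraries took Smad4 from -0.13 to 0.13. On total reads Tgfbr2 was 0.38 and Tgfbr3 0.51. Without single libraries, ranges that crossed 0 were -0.040 to 0.86 for Smad2, -0.15 to 0.48 for Smad7, -1.61 to 0.36 for Tgfb3, -0.56 to 0.18 for Tgfbr2, -0.79 to 0.64 for Tgfbr3 and -0.12 to 0.76 for Eif5a. Smad3 stayed between -1.94 and -0.81. The share of Tgfb1 among ligands differed by -5.46 to 2.62 percentage points, that of Tgfbr3 among receptors by -6.75 to 3.57 and that of Smad4 among Smads by 0.88 to 6.56. The causes were not tested. With 1 library left in an arm, that library is assumed to vary like the other group.

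With the replicate number as a block, Smad3 was -1.37 with an adjusted p-value of 0.667 in limma, and the replicate block changed no call of a member or pathway gene. Over all genes it took the number called from 12 to 0, and from 0 to 1 with the trend on GC and length taken out. WT replicate 1 minus 2 and the same difference in the libraries labelled KO correlated at 0.12 across 6500 genes, and with 2 pairs the numbers do not show pairing. Depth limits Tgfb2 and Tgfb3 most.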
